A study of Mus musculus with 4 samples.

Results

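The genes described here encode factors that make ribosomes and subunits of the RNA exosome. They were chosen by symbol: protein-coding genes named Rrp, Nop, Utp, Nol, Polr1 or Exosc with a number or letter, and Dis3, with at least 2 CPM (counts scaled to the library total) in at least 1 library. The rule gave 48 genes of the 12490 measured at that level: 8 Rrp, 8 Nop, 10 Utp, 7 Nol and 5 Polr1 genes, 9 Exosc genes and Dis3. Of the 50 genes with such symbols, Nol3 and Nol4 were left out, with at most 0.781 and 0.335 CPM in any library, while Rrp12 and Utp20 passed with the lowest maxima, 11.4 and 11.8 CPM. Exosc6 was not analysed here. The set was picked because its Rrp genes stood high in 1 library, so every value of that library against the other 3 is a description and supports nothing by itself.

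Thymocytes of mice aged 6 to 8 weeks, strain label C57BL/6, were sorted for TCRβ and CD69 and sequenced in 4 libraries, 1 for each combination of genotype and sorted group. The genotypes were Uba3ΔT, labelled Uba3-/- and called KO in the sample titles, and Uba3F/F, labelled wild type and called WT. Uba3 is the catalytic subunit of the enzyme that starts neddylation, the attachment of NEDD8 to cullins and other proteins. Group 3 was TCRβhi CD69hi, the later step of selection, and group 2 was TCRβint CD69hi, the earlier step. The Cre line behind ΔT and the number of mice behind each library are not given in the sources used here. With 1 library per group no difference has a replicate check, no test was made, and the 95% intervals below (exact conditional binomial, Clopper-Pearson) cover counting error only.

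The libraries held 9689339 counts (labelled KO group 3), 8043077 (WT group 3), 8964120 (labelled KO group 2) and 10299863 (WT group 2). All 10 thymocyte markers, such as Cd3e and Lck, were present in every library, and the 6 later-step markers summed to 19103 and 14964 counts in the group 3 libraries labelled KO and WT against 9340 and 9664 in the group 2 libraries labelled KO and WT. In CPM scaled by edgeR's TMM factors, these sums were 2006 and 1835 against 1058 and 921. The 6 earlier-step markers, such as Rag1 and Dntt, separated the sorted groups less. Their scaled sums were 2160 and 2893 in the group 3 libraries labelled KO and WT. In group 2 they were 2935 and 3483, so the KO-labelled library of group 2 and WT group 3 lay close together. Uba3 itself went against the label, with 856 counts in the library labelled KO group 3 and 356 in WT group 3, and 647 in the KO-labelled library of group 2 and 453 in WT group 2; a count over the whole gene does not separate deleted from kept exons. Directions below are those of libraries labelled KO over WT. These are bulk samples, in which fewer cells of a type and less RNA per cell cannot be told apart.

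Ribosome assembly starts in the nucleolus, where RNA polymerase I, built from Polr1 and shared subunits, transcribes a long precursor RNA. The small subunit processome, which holds the Utp proteins and a small nucleolar ribonucleoprotein with Rrp9, folds and cuts the part that becomes the small subunit, and other factors such as Rrp1, Rrp15 and Nop2 work on the large subunit. The RNA exosome, a ring of Exosc proteins joined by the nucleases Exosc10 and Dis3, trims and degrades the spacer RNA. In thymocytes, as in other cells, this machinery is known for following growth and division.

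The promoters of 4 genes are shown because 3 belong to the members with the largest folds in the library labelled KO group 3, Rrp1, Rrp8 and Exosc5, and 1 to Nop56, the most abundant member per length in all 4 libraries, which differed little between them. They run from 250 bases before to 50 bases after the RefSeq start (GRCm38.p6, the build also called mm10), 5′ to 3′, with matches to 7 motifs searched on both strands in capitals. Rrp1 is at chr10:78412994-78413293 on the minus strand, Rrp8 at chr7:105737336-105737635 on the minus strand, Exosc5 at chr7:25658903-25659202 on the plus strand and Nop56 at chr2:130274162-130274461 on the plus strand.
Rrp1: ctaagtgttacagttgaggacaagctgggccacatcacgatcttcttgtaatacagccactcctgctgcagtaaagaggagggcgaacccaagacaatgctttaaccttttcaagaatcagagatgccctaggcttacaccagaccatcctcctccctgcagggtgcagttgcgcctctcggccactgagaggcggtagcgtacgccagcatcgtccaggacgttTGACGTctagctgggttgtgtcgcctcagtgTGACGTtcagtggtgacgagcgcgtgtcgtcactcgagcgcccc
Rrp8: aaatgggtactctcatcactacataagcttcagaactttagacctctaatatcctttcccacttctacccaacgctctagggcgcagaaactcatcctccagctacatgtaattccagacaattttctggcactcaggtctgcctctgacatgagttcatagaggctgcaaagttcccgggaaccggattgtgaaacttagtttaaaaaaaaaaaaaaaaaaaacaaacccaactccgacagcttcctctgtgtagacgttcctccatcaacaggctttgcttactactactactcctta
Exosc5: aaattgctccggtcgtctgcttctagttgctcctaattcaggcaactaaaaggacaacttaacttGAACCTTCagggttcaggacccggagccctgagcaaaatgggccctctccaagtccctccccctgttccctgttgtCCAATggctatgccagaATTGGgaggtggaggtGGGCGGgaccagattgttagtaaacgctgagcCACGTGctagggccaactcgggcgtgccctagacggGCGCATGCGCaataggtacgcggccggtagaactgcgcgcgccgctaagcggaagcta
Nop56: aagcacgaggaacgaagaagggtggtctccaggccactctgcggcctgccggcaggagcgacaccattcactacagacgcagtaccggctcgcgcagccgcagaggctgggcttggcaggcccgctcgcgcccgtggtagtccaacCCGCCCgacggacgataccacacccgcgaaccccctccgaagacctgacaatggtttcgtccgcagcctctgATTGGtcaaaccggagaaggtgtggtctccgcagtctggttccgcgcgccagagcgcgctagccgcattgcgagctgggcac
The motifs were the E-box (CACGTG), the heat shock element (GAANNTTC), the CCAAT box, the GC box (GGGCGG), the ETS core (CCGGAAG), the core of the cAMP response element (TGACGT) and the NRF1 core (4 letters GCGC, any base, then TGCGC), and no matches overlapped in these 4 windows. Rrp1 held 2 matches to TGACGT and no other, Exosc5 held the E-box, the heat shock element, the CCAAT box, the GC box and the NRF1 core, Nop56 held the CCAAT and GC boxes, and Rrp8 held none. A match describes letters only.

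Promoters were matched for 40 of the 48 members, 9 of them among the 10 genes that stood high in the library labelled KO group 3; Rrp12 was not matched. CCAAT occurred in 6 of these 9 promoters, in 9 of the other 31 members' promoters (29.0%) and in 37.4% of all 32851 RefSeq promoters of the same length. The GC box occurred in 6 of 9 and in 24 of 31, against 35.7% of all promoters. The E-box occurred in 2 of 9 and 6 of 31 (7.15% of all promoters), the ETS core in 3 of 9 and 10 of 31 (8.86%), the NRF1 core in 2 of 9 and 7 of 31 (4.60%), TGACGT in 1 of 9 and 6 of 31 (7.51%), and the heat shock element in 1 of 9 and 1 of 31 (7.86%). Median GC content was 57.3% in the 9, 58.0% in the 31 and 52.7% over all promoters. None of the 7 motifs was present in all 9 promoters.

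In the library labelled KO group 3, all 8 Rrp genes were higher than in each of the other 3 libraries by at least 2-fold, and so were Exosc5 and Dis3. The other 38 members, which include every Nop, Utp, Nol and Polr1 gene, were not. Over all measured genes 52 of 12490 (0.416%) met that rule, a share given beside the 10 of 48 members for scale only, since the rule that picked the set used this library. Folds are log2 ratios of CPM scaled by edgeR's TMM factors plus 0.5, and a gene counts as past 2-fold when the interval of its count ratio also excludes 1.

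Rrp1, a nucleolar protein of large subunit assembly, had 6169 counts in the library labelled KO group 3 and 426 in WT group 3, and 404 in the KO-labelled library of group 2 and 351 in WT group 2. Its count ratio between the group 3 libraries was 12.4 (interval 11.2 to 13.7) and between the group 2 libraries 1.37 (1.18 to 1.58). Per length it stood at 317 RPKM in the library labelled KO group 3, against 26.4 in WT group 3, and at 22.4 in the KO-labelled library of group 2, against 17.0 in WT group 2. That level is next to Nop56, the most abundant member, at 335 RPKM in the same library, while in the other 3 Rrp1 was far below Nop56. Rrp1b, the paralog of Rrp1, had 345 counts in the library labelled KO group 3 and 75 in WT group 3, and 71 in the KO-labelled library of group 2 and 78 in WT group 2, a group 3 ratio of 3.94 (3.06 to 5.13). No run of 25 bases was shared between GENCODE M21 transcripts of Rrp1 and Rrp1b.

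Rrp8, a methyltransferase that modifies ribosomal RNA and also acts in silencing of ribosomal DNA, had 586 counts in the library labelled KO group 3 and 63 in WT group 3, and 59 in the KO-labelled library of group 2 and 85 in WT group 2. The group 3 ratio was 7.96 (6.13 to 10.5) and the group 2 ratio 0.825 (0.582 to 1.16). Rrp15, a factor of large subunit assembly, had 478 counts in the library labelled KO group 3 and 69 in WT group 3, and 73 in the KO-labelled library of group 2 and 62 in WT group 2, a group 3 ratio of 5.93 (4.60 to 7.75). In both genes the 3 lower libraries lay close to each other and the library labelled KO group 3 stood alone.

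**Figure D1:**
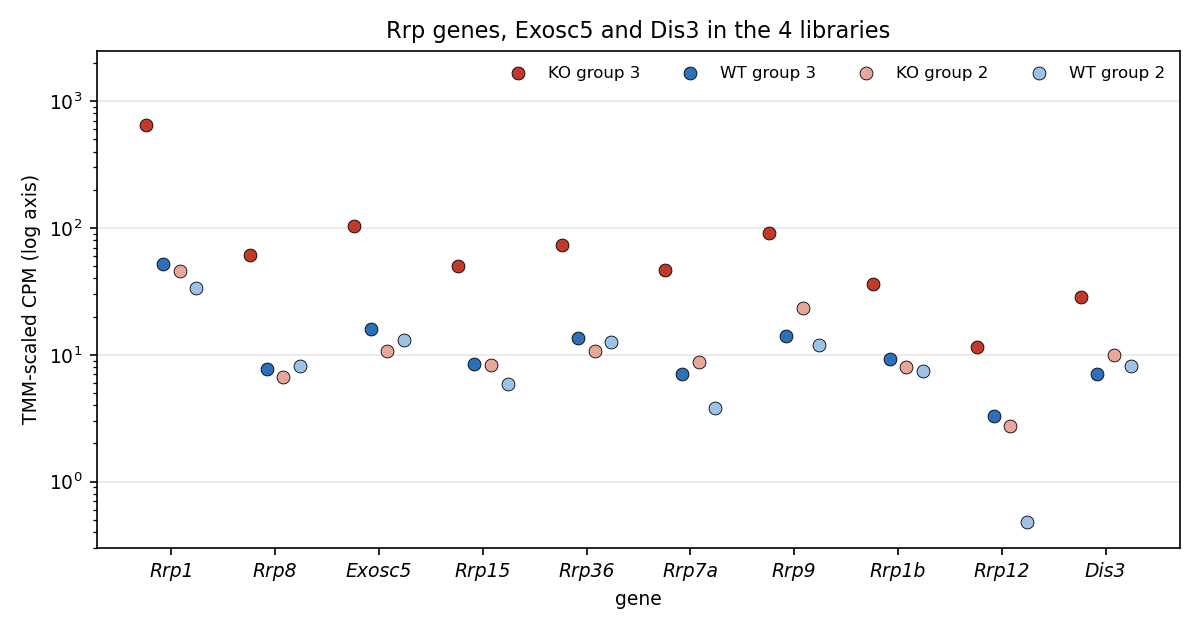
Level of the 8 Rrp genes, Exosc5 and Dis3 in each library as TMM-scaled CPM on a log axis, 1 point per library (labels KO and WT as in the sample titles; no error bars, 1 library per group). In each of the 10 genes the library labelled KO group 3 is the highest point, with Rrp12 also low in WT group 2.

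Among the Rrp proteins of the small subunit, Rrp36 had 701 counts in the library labelled KO group 3 and 110 in WT group 3, and 94 in the KO-labelled library of group 2 and 133 in WT group 2, a group 3 ratio of 5.46 (4.46 to 6.73). Rrp9, a protein of the U3 small nucleolar ribonucleoprotein, had 873 counts in the library labelled KO group 3 and 115 in WT group 3, and 206 in the KO-labelled library of group 2 and 125 in WT group 2. Its ratios were 6.50 (5.35 to 7.97) in group 3 and 1.96 (1.56 to 2.47) in group 2. Rrp7a, a protein of the processome, had 443 counts in the library labelled KO group 3 and 57 in WT group 3, and 77 in the KO-labelled library of group 2 and 40 in WT group 2, with ratios of 6.65 (5.04 to 8.93) and 2.29 (1.54 to 3.44). Rrp9 and Rrp7a were thus higher in the KO-labelled library of both sorted groups, and Rrp36 in group 3, its group 2 ratio being 0.840 (0.638 to 1.10).

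Rrp12, which helps precursor subunits leave the nucleus, was the least abundant member of the family. It had 110 counts in the library labelled KO group 3 and 27 in WT group 3, and 24 in the KO-labelled library of group 2 and 5 in WT group 2. The group 3 ratio was 3.49 (2.27 to 5.53) and the group 2 ratio 5.71 (2.13 to 19.1), which rests on 5 counts in WT group 2. Its ratio of ratios between the sorted groups (log2, group 3 minus group 2) was -0.71 (-2.23 to 0.81), the only one of the 10 whose counting interval held 0; the others ran between 1.54 for Rrp7a and 3.27 for Rrp8, with 3.18 for Rrp1 (2.93 to 3.43) and 2.98 for Exosc5 (2.51 to 3.44).

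Summed over the family, the 8 Rrp genes held 9705 counts in the library labelled KO group 3, 0.100% of it, against 942 in WT group 3, and 1008 in the KO-labelled library of group 2 against 879 in WT group 2. Without Rrp1 the sums were 3536 and 516 in group 3 and 604 and 528 in group 2. Median levels were 42.2 RPKM in the library labelled KO group 3 and 6.65 in WT group 3, and 5.95 in the KO-labelled library of group 2 and 6.20 in WT group 2. The 40 other members had medians of 34.7, 34.0, 34.3 and 34.7 RPKM in the same order. In 3 of the 4 libraries the typical Rrp gene was therefore a low-level member of the set, and in the library labelled KO group 3 it was above the median of the others.

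The family median was smaller in comparisons that do not hold the library labelled KO group 3, while the log2 folds of Rrp12 in them, 1.72 and 1.96, were not below its 1.66 in the group 3 pair. In the library labelled KO group 2 against WT group 2, the family median log2 fold was 0.45, beside 0.00 over all genes, and Rrp12 (1.72) and Rrp7a (1.10) were past 2-fold. These were the only 2 of 48 members past 2-fold higher, while 6.45% of all genes were, and no member was past 2-fold lower, while 2.44% of all genes were. With a pseudocount of 2 CPM in place of 0.5, neither was past 2-fold: Rrp12 stood at 0.93 and Rrp7a at 0.88. In WT group 3 against WT group 2 the family median was 0.39, and Rrp12 (1.96) was past 2-fold. It was 1 of 48 members, with 5.22% of all genes past 2-fold higher in that step. These comparisons share the WT group 2 library. In each of them 4 of 8 Rrp genes had an interval above 1 and none below, where 27.3% and 23.8% of all genes lay above.

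Between the KO-labelled libraries, group 3 against group 2, the same 10 members were past 2-fold higher and none lower, with 1.85% and 5.99% of all genes past 2-fold. Log2 folds were 3.81 for Rrp1, 3.22 for Exosc5, 3.11 for Rrp8, 2.73 for Rrp36, 2.53 for Rrp15, 2.35 for Rrp7a, 2.10 for Rrp1b, 1.95 for Rrp9, 1.90 for Rrp12 and 1.47 for Dis3. For KO against WT in group 3 the background was 2.17% of genes higher and 5.6% lower. The members' median log2 fold there was 0.15 over all 48 and 0.11 over the 38 that exclude Rrp, Exosc5 and Dis3, beside -0.01 over all genes.

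**Figure D2:**
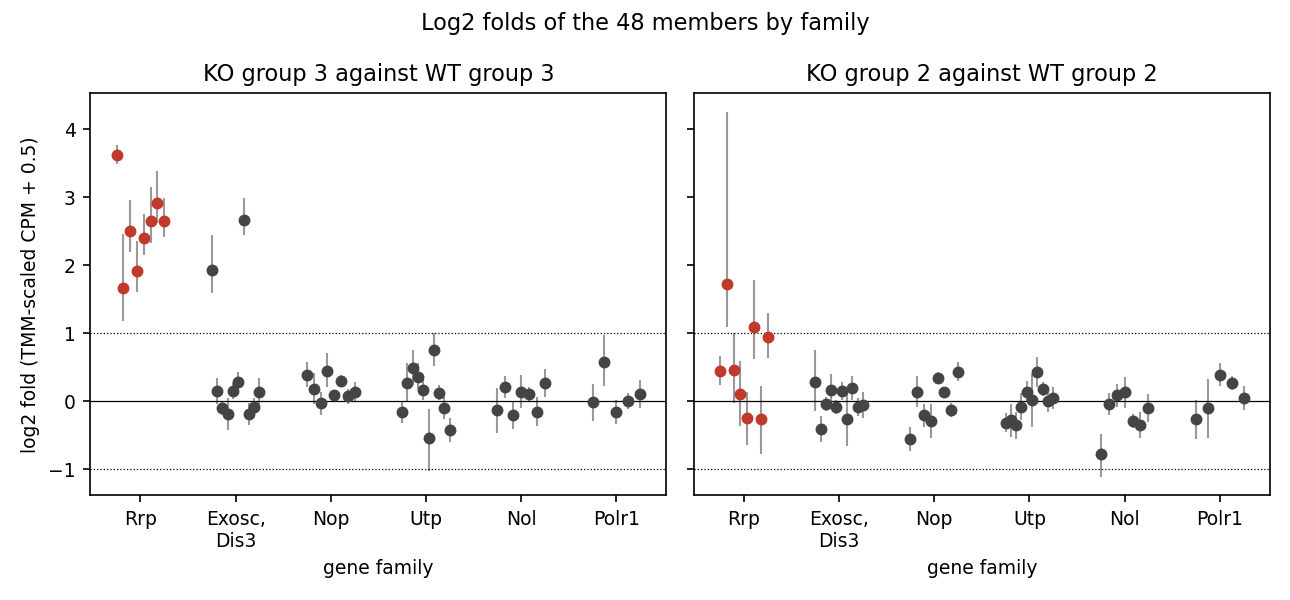
Log2 folds of the 48 members (TMM-scaled CPM plus 0.5) by family, for the libraries labelled KO against WT in group 3 on the left and group 2 on the right. Each point is 1 gene, grey lines are 95% counting intervals of its count ratio, dotted lines mark 2-fold; Rrp genes lie between 1.66 and 3.62 on the left and between -0.26 and 1.72 on the right.

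The exosome genes split between Exosc5 and Dis3 and the rest. Exosc5, a subunit of the ring, had 992 counts in the library labelled KO group 3 and 130 in WT group 3, and 95 in the KO-labelled library of group 2 and 136 in WT group 2. Its group 3 ratio was 6.53 (5.44 to 7.91) and its group 2 ratio 0.830 (0.632 to 1.09). Dis3, the catalytic subunit that joins the base of the ring, had 272 counts in the library labelled KO group 3 and 58 in WT group 3, and 88 in the KO-labelled library of group 2 and 85 in WT group 2. Its group 3 ratio was 4.02 (3.01 to 5.43), and its group 2 interval, 0.903 to 1.68, held 1.

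The 8 other exosome genes lay within 2-fold in all 4 comparisons. Per comparison, 1.85% to 6.45% of all genes were past 2-fold higher and 1.86% to 5.99% lower, so few calls would be looked for among 8. Among the ring subunits, Exosc4 had group 3 and group 2 log2 folds of 0.29 and 0.15, Exosc7 of -0.19 and 0.19, Exosc8 of -0.08 and -0.09 and Exosc9 of 0.14 and -0.05. Among the cap subunits, which bind RNA at the top of the ring, Exosc1 stood at 0.15 and -0.40, Exosc2 at -0.19 and 0.17 and Exosc3 at 0.14 and -0.08. Exosc10, the nuclear nuclease, stood at -0.10 and -0.04. Per length Exosc5 was at 99.4 RPKM in the library labelled KO group 3 and 15.7 in WT group 3, and at 10.3 in the KO-labelled library of group 2 and 12.8 in WT group 2. The other ring subunits measured, Exosc4, Exosc7, Exosc8 and Exosc9, ran from 39.2 (Exosc9) to 113 RPKM (Exosc8) in the library labelled KO group 3 and from 36.6 to 124 in WT group 3, and from 35.8 to 101 in the KO-labelled library of group 2 and from 38.4 to 111 in WT group 2. Exosc5 lay within that range in the library labelled KO group 3 and below it in the other 3.

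**Figure D3:**
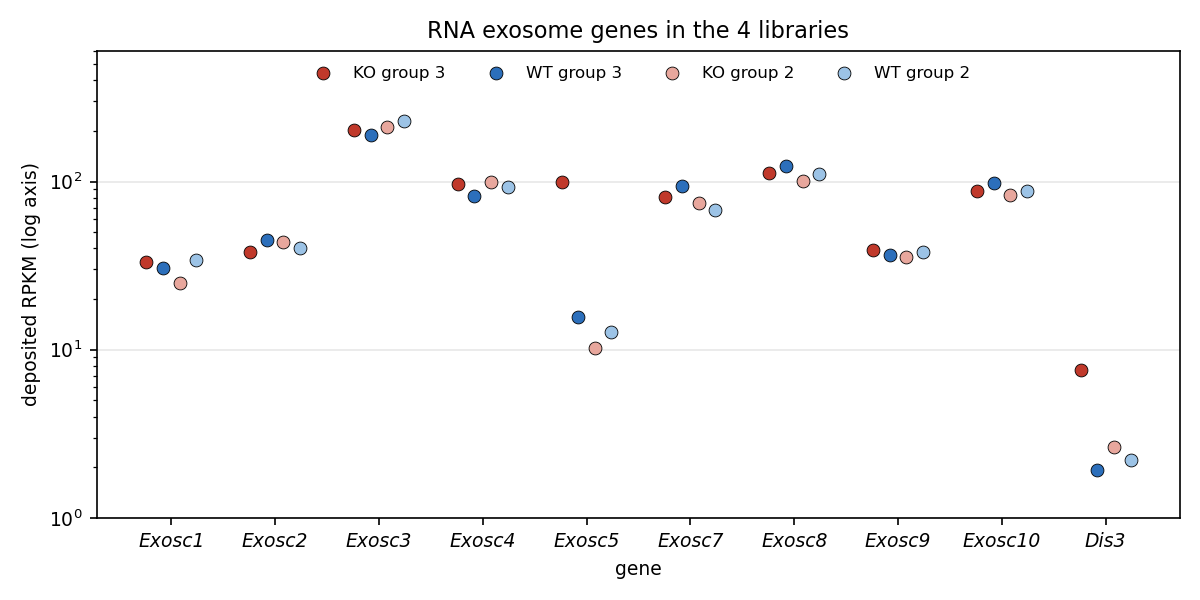
Deposited RPKM of the 9 Exosc genes and Dis3 in each library on a log axis, 1 point per library. Exosc5 is at 99.4 RPKM and Dis3 at 7.54 in the library labelled KO group 3, against 10.3 to 15.7 and 1.94 to 2.64 in the other libraries, and the points of the remaining genes lie close together.

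Nop proteins include the cores of the ribonucleoproteins that guide modification of ribosomal RNA. Nop56, a core protein of the box C/D class, had 3475 counts in the library labelled KO group 3 and 2410 in WT group 3, and 2983 in the KO-labelled library of group 2 and 3215 in WT group 2, with log2 folds of 0.30 and 0.14. Its partner Nop58 stood at 0.07 and -0.13. Nop10, of the box H/ACA class, was higher in the group 3 pair (0.39) and lower in the group 2 pair (-0.55). Nop2, a methyltransferase of the large subunit, had log2 folds of 0.45 in group 3, the highest of the family there, and -0.29 in group 2. Nop9 (0.14 and 0.44) was highest in group 2, and Nop16 (-0.03 and -0.20) lowest in group 3. Nop53, which brings the exosome to the large subunit, stood at 0.09 and 0.35, and Nop14, of the small subunit, at 0.18 and 0.14. None of the 8 Nop genes was past 2-fold in any of the 4 comparisons. Few calls would be looked for among 8 genes, since 1.85% to 6.45% of all genes were higher and 1.86% to 5.99% lower per comparison.

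The Utp genes of the small subunit processome ranged in log2 fold from -0.54 (Utp20) to 0.75 (Utp23) in group 3 and from -0.35 (Utp14b) to 0.42 (Utp23) in group 2. Utp6 (-0.42 in group 3, 0.05 in group 2) was next to Utp20 in group 3, and the interval of its ratio, 0.661 to 0.843, excluded 1. Between the KO-labelled libraries, group 3 over group 2, Utp15 was highest (0.42) and Utp20 lowest (-0.51), and between WT group 3 and WT group 2 the highest was Utp4 (0.20). Utp14b was the only member past 2-fold lower in any comparison. It had 328 counts in the library labelled KO group 3 and 199 in WT group 3, and 355 in the KO-labelled library of group 2 and 540 in WT group 2, so that WT group 3 stood at 0.474 of WT group 2 (0.401 to 0.559). It overlaps Acsl3 on the same strand, and reads of these genes could not be told apart with certainty. Its X-linked paralog Utp14a was lower in the same step, by a log2 fold of -0.59. In that step 1.86% of all genes were past 2-fold lower.

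Among the Nol genes, Nol10 was lowest in group 2. It had 153 counts in the library labelled KO group 3 and 144 in WT group 3, and 125 in the KO-labelled library of group 2 and 258 in WT group 2, a group 2 ratio of 0.576 (0.461 to 0.716). Nol9, a kinase of ribosomal RNA processing, was the highest in group 3 at 0.26, and Nol12 the lowest at -0.21. Nol6, which belongs to the processome, was highest in group 2 at 0.13 and stood at 0.14 in group 3. Nol7 (0.10 and -0.28), Nol8 (-0.15 and -0.35) and Nol11 (0.21 and -0.04) completed the family. In WT group 3 against WT group 2 all 7 had log2 folds below 0, from -0.47 for Nol10 to -0.02 for Nol11. The counting interval lay below 1 in 3 of them and held 1 in 4. Over all measured genes, 6286 of 12490 were below 0 in that step, and 24.1% had an interval below 1.

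RNA polymerase I subunits were within 2-fold as well. Polr1b, the second largest subunit, came nearest. It had 168 counts in the library labelled KO group 3 and 95 in WT group 3, and 79 in the KO-labelled library of group 2 and 101 in WT group 2, with ratios of 1.51 (1.17 to 1.97) and 0.930 (0.684 to 1.26). Polr1a, the largest subunit, stood at log2 folds of -0.02 and -0.26. Polr1c and Polr1d, which RNA polymerase III shares, stood at -0.16 and 0.39 and at 0.01 and 0.27, and Polr1e at 0.10 and 0.05. Depending on the comparison, 1.85% to 6.45% of all genes were past 2-fold higher and 1.86% to 5.99% lower. Of the 38 members outside the high 10, 12 had their highest TMM-scaled CPM in the library labelled KO group 3 (31.6%), where 26.6% of all genes did.

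The wider pathway was followed in 116 further genes in 6 lists, of which 114 were measured. None was past 2-fold in either direction in KO against WT of group 3, where 2.17% of all genes were past it higher and 5.6% lower, and their median log2 fold was 0.07. In group 2 only Shq1, an assembly factor of box H/ACA particles, was past 2-fold (1.18; 105 counts in the library labelled KO group 2 and 52 in WT group 2), where 6.45% of all genes were past it higher and 2.44% lower, and the median was 0.00. By list, the group 3 and group 2 medians were 0.03 and 0.02 for 26 processome and small subunit genes, 0.03 and 0.10 for 30 large subunit genes, 0.00 and 0.10 for 14 ribonucleoprotein and nucleolar genes, 0.12 and -0.16 for 15 polymerase I factors, 0.15 and -0.16 for 19 exosome cofactors and nucleases and 0.07 and 0.17 for 10 growth regulators. Fbl, the methyltransferase that works with Nop56 and Nop58, stood at -0.46 and 0.63. Ncl (0.10 and 0.22) and Npm1 (-0.26 and -0.08) are abundant nucleolar proteins. Mtrex, the helicase of the nuclear exosome, stood at 0.13 and -0.46. Myc, a transcription factor known to drive ribosome biogenesis, had 1024 counts in the library labelled KO group 3 and 1006 in WT group 3, and 650 in the KO-labelled library of group 2 and 1071 in WT group 2. These libraries held 9689339 and 8043077 counts in group 3 and 8964120 and 10299863 in group 2, labelled KO before WT. As a share of the library, Myc was therefore lower in the KO-labelled library of both sorted groups.

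Ranked by the smallest log2 fold of the library labelled KO group 3 over the other 3, the 10 high members lay among the extremes. This ranking uses the library that picked the set, so it is a description only. All 10 were among the first 30 of the 12490 genes, with Rrp1 at rank 5, Rrp8 at 7, Exosc5 at 10, Rrp15 at 13, Rrp36 at 14, Rrp7a at 16, Rrp9 at 18, Rrp1b at 19, Rrp12 at 22 and Dis3 at 28. Of the 10 named protein-coding genes with the largest such fold and 10 CPM in that library, 7 were members and the other 3 were Ngp, Hsp90aa1 and Lars2. Hsp90aa1, a heat-inducible chaperone, had 4660 counts in the library labelled KO group 3 and 632 in WT group 3, and 674 in the KO-labelled library of group 2 and 799 in WT group 2. Lars2, the mitochondrial leucyl-tRNA synthetase, had 1203 and 210 counts in group 3 and 214 and 193 in group 2, labelled KO before WT. Outside the high 10, the members' smallest fold ran from -0.60 (Nol10) to 0.58 (Polr1b).

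**Figure D4:**
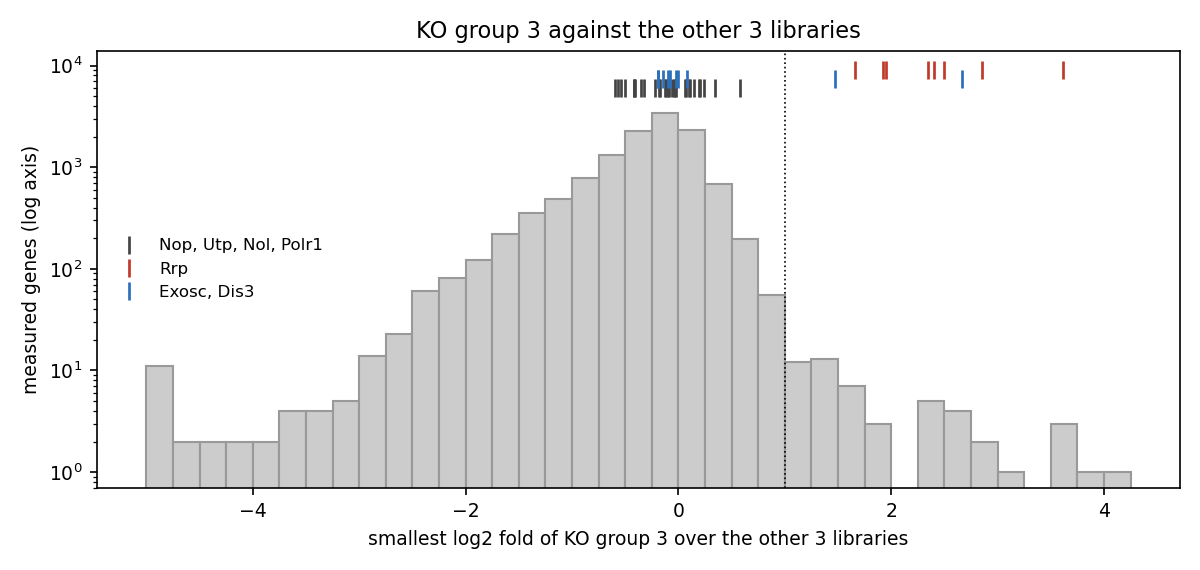
Number of measured genes (log axis) by the smallest of the 3 log2 folds of the library labelled KO group 3 over the other libraries, in bins of 0.25, with genes below -5 counted in the first bin. Ticks mark the 48 members, and the dotted line marks 2-fold; the 8 Rrp genes, Exosc5 and Dis3 lie between 1.47 and 3.62, to the right of the line.

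Levels of some other transcripts and of the marker lists were as follows. Gm42418 (chromosome 17, 39846958 to 39848788 in mm10), a lincRNA gene that RefSeq lists as a synonym of the ribosomal RNA pseudogene Rn18s-rs5, had 13175 counts in the library labelled KO group 3 and 713 in WT group 3, and 786 in the KO-labelled library of group 2 and 756 in WT group 2. Gm26917 beside it had 2283 and 292 counts in group 3 and 207 and 154 in group 2, labelled KO before WT. The 10 neutrophil markers summed to 491 counts in the library labelled KO group 3 and 36 in WT group 3, and to 40 in the KO-labelled library of group 2 and 43 in WT group 2. Of these markers 7 were measured and 6 were past 2-fold higher in the group 3 pair, led by Ngp with 204 and 6 counts, and Elane was at 0 in both group 3 libraries. The 18 heat shock and handling genes summed to 79566 and 45697 counts in the group 3 libraries labelled KO and WT and to 59302 and 50262 in those of group 2. Of the 16 measured, 3 were past 2-fold higher in the group 3 pair and 3 in the group 2 pair, and 1 and 0 were lower, beside all-gene shares of 2.17% and 6.45% higher and 5.6% and 2.44% lower. Of 9 measured macrophage and dendritic genes, 1 was higher and 1 lower in the group 3 pair, 4 were higher in the group 2 pair and 3 in WT group 3 against WT group 2. Of 6 measured B cell genes, 1 was higher in the group 3 pair, 2 in the group 2 pair and 1 in WT group 3 against WT group 2. In WT group 3 against WT group 2, 5.22% of all genes were past 2-fold higher. No gene of the erythroid list (5 measured) or of thymic epithelium (1) was past 2-fold in either pair, and 1 of 3 stromal genes was lower in the group 3 pair. The macrophage and dendritic list summed to 1028 counts in the group 3 library labelled KO and 590 in WT, the B cell list to 619 and 493, the erythroid list to 3763 and 3280, the epithelial list to 311 and 247 and the stromal list to 1198 and 969. These raw sums come from libraries of unequal depth. In TMM-scaled CPM, in the same order, the macrophage and dendritic sums were 108 and 72.4 and the B cell sums 65.0 and 60.5. The erythroid sums were 395 and 402, the epithelial sums 32.7 and 30.3 and the stromal sums 126 and 119. The part of these transcripts in the Rrp, Exosc5 and Dis3 counts was not tested.

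What the high members share beyond their names was looked for in position, overlap and sequence. The 10 genes lie on 8 chromosomes: Rrp15 on 1, Rrp8 and Exosc5 on 7, Rrp9 on 9, Rrp1 on 10, Dis3 on 14, Rrp7a on 15, Rrp1b and Rrp36 on 17 and Rrp12 on 19. Of the 20 nearest measured protein-coding genes on either side, which lay 0.183 to 2343 kb away, none was past 2-fold in the group 3 pair, and their log2 folds ran from -0.62 to 0.76 with a median of 0.00. Of all genes, 2.17% were past 2-fold higher and 5.6% lower in that pair, so few calls would be looked for among 20 genes. Klhdc3, 0.198 kb from Rrp36, stood at -0.17, and Bckdha, 0.183 kb from Exosc5, at -0.04. Rrp15 and the other high members stood between 1.66 and 3.62 in the same pair.

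**Figure D5:**
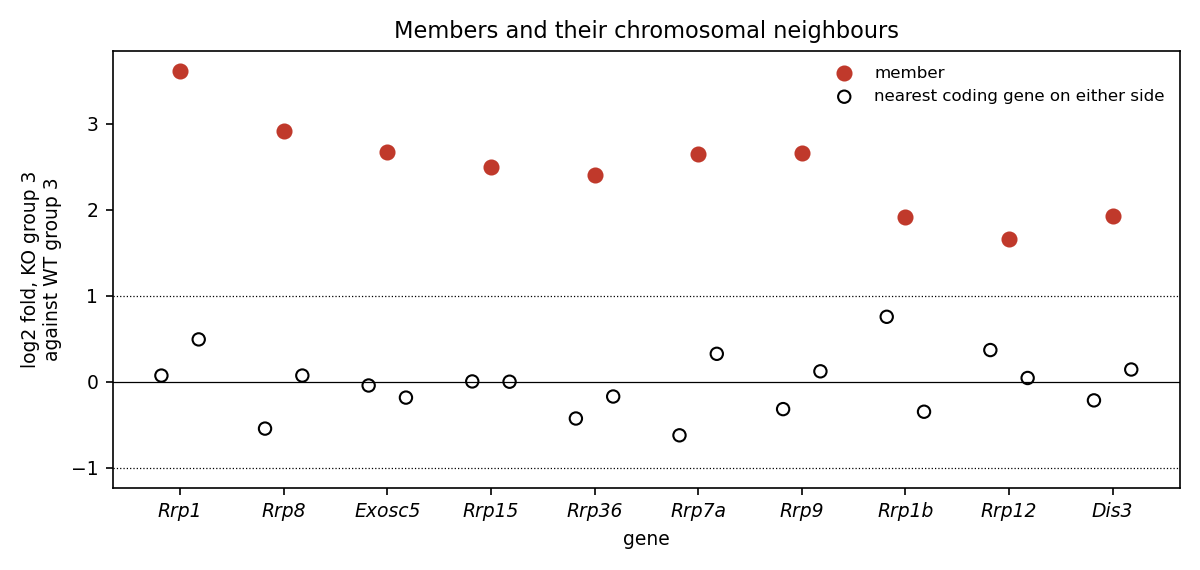
Log2 fold of the libraries labelled KO over WT in group 3 for the 10 high members (filled) and for the nearest measured protein-coding gene on each side (open), with dotted lines at 2-fold. The 20 neighbours lie between -0.62 and 0.76, below every filled point.

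In GENCODE M21, 8 of the 10 high members overlap another annotated gene, as do 28 of the 48 members. Among the partners of the high members that were counted, Parp3, on the opposite strand at Rrp9, had 417 counts in the library labelled KO group 3 and 366 in WT group 3, and 280 in the KO-labelled library of group 2 and 294 in WT group 2. Serhl at Rrp7a had 38 and 50 counts in group 3 and 34 and 42 in group 2, Pibf1 at Dis3 had 356 and 261 in group 3 and 291 and 434 in group 2, and Tmem91 at Exosc5 had 35 and 47 in group 3 and 22 and 37 in group 2, labelled KO before WT. Ilk at Rrp8, Hsf2bp at Rrp1b and Gm26904 at Rrp36 had at most 11 counts in any library. The strand setting of the counts is not given in the sources used here, so reads of such pairs could not be told apart with certainty. Of the 45 pairs among the 10 high members, 4 shared any run of 25 transcript bases, and none of these held Rrp1, Rrp8 or Rrp36. Of 30 pairs of a high member with Gm42418, Gm26917 or Lars2, 1 did (Rrp1b with Lars2).

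The RefSeq table gives a synonym of the Rrp form to 7 measured genes. They are the members Exosc2, Exosc3, Exosc4, Exosc9 and Exosc10, and Rhbdd1 and Rhbdl2, which are not members and match by the letters of the synonym only. None of the 7 was past 2-fold over each of the other 3 libraries in the library labelled KO group 3. Over all measured genes 0.416% met that rule, so none would be looked for among 7 genes. The table lists no such synonym for Exosc5 or Dis3, and its synonyms are not complete.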

How the data were processed

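The authors deposited 1 table of raw counts by Ensembl gene ID and, for each of the 4 libraries, a table with RPKM. The submitters' processing notes name TopHat2 2.0.12 and mm10. How reads were counted, with which annotation and strand setting, is not given in the sources used here. The deposited RPKM and counts together imply a whole gene length within 0.01 bp for 100% of genes with counts, and RPKM served to compare levels between genes. Groups follow the sample titles, since the cell type field goes against them and the series design. Of 35275 gene IDs, 34490 matched GENCODE M21.

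Counts were scaled with edgeR 4.0.16 (TMM; R 4.3.3), and DESeq2 1.42.0 size factors served as an alternative. The fold is the log2 ratio of scaled CPM plus 0.5; past 2-fold means that fold with a 95% interval excluding 1 (scipy 1.17.1). With 1 library per group no model was fitted and no p-value is given. The calculation was checked on simulated counts with counting error only, so the check does not speak to spread between mice or libraries. The intervals of ratios of ratios come from the sum of reciprocal counts. Promoters are from RefSeq (GRCm38.p6).

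The members, lists and comparisons were chosen with earlier results of these data known. Named were all Rrp and Exosc genes and Dis3, the extremes of the other families, pathway genes past 2-fold, the 10 coding genes highest in the library labelled KO group 3 over the others, and up to 4 genes per marker list. Gm42418, Gm26917, other members of the Nop, Nol and Polr1 families, some pathway genes (Fbl, Ncl, Npm1, Mtrex) and the overlapping and neighbouring genes were chosen after their values were seen.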

Additional observations from a re-analysis of the deposited data

Results flagged for a closer look

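Members were picked out here when their folds in the sorted groups, or in the genotypes, went opposite ways with both counting intervals excluding 1. With 1 library on each side, the difference was not tested.

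For KO against WT, log2 folds in group 3 and in group 2 were 0.39 and -0.55 for Nop10, 0.45 and -0.29 for Nop2, 0.49 and -0.35 for Utp14b and -0.19 and 0.19 for Exosc7. For group 3 against group 2, log2 folds in the libraries labelled KO and in WT were 0.47 and -0.47 for Nop10, -0.11 and 0.15 for Nop53 and -0.18 and 0.37 for Polr1c. Nop10, a core protein of box H/ACA particles, was picked out in both, with 638 counts in the library labelled KO group 3 and 416 in WT group 3, and 426 in the KO-labelled library of group 2 and 746 in WT group 2. Both ways of picking use the same 4 libraries and the same difference of folds, so these are not separate results. Utp14b shares its locus with Acsl3.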

How the results depend on the processing

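The 10 members past 2-fold higher in group 3, the 10 past 2-fold higher over each other library and the medians of the set, of the Rrp genes and of the rest (a median between the medians of its members' lower and upper interval bounds, a count within 1.5 times) stayed as reported with DESeq2 size factors, library totals, a filter of 10 CPM, no filter and, for the medians, without Rrp1. Other scalings moved no member's log2 fold by more than 0.0084 (DESeq2) or 0.049 (totals). With a pseudocount of 2 CPM the members past 2-fold higher in group 2 numbered 0 in place of 2. With a threshold of 1.5-fold, 1 member was lower in the group 2 pair (Nol10) in place of 0, and in WT group 3 against WT group 2, 3 were higher in place of 1 and 2 lower in place of 1. Over all genes, the 52 above each other library became 31 with that pseudocount, 22 at 10 CPM, 86 with no filter and 176 at 1.5-fold, where fewer or more genes are tested or pass. TMM factors without the library labelled KO group 3, an alternative chosen after seeing the data, left the comparisons of the other libraries as they were by the same measure. No paired analysis was possible because each group holds 1 library. Rrp12 rests on 5 counts in WT group 2, and its group 2 fold was 0.93 with the larger pseudocount in place of 1.72. Depth limits ratios of genes with few counts.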

Other observations

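Among the 52 genes above each other library in the library labelled KO group 3, chosen after their values were seen, Rpl12 encodes a protein of the large ribosomal subunit. It had 1321 counts in the library labelled KO group 3 and 422 in WT group 3, and 413 in the KO-labelled library of group 2 and 479 in WT group 2, a group 3 ratio of 2.68 (2.40 to 3.00). Tnfsf11, the cytokine RANKL that shapes the thymic medulla, had 721 and 236 counts in group 3 and 212 and 102 in group 2, labelled KO before WT. Of the 52 genes 40 were protein-coding.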
